A study of Mus musculus with 6 samples.

Results

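The genes of the insulin-like growth factor (IGF) system were followed in lung cells of mice that had received the complement protein C1q in the airways. They are the ligand gene Igf1, the receptor genes Igf1r and Igf2r, and 6 genes for IGF binding proteins, Igfbp2 to Igfbp7. They were picked by gene symbol, and all 9 were found among the 26890 genes listed. All 9 also passed the filter on low counts, which left 13473 genes for testing. Both groups were C57BL/6 mice of genotype WT sampled on day 3. The control group was labelled Saline, and the other group received C1q into the trachea at 20 µg per mouse, with 3 libraries in each group. The groups rest on the treatment label, since the protocol text of every sample describes C1q instillation. The labels give no age or sex and do not say that each library came from its own mouse, so p-values measure the spread between these libraries, which may be partly technical. Lungs were digested, and the cells that gathered in the middle layer of a Percoll gradient were lysed for RNA capture, so the values describe a mixture of lung cells.

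IGF1 is a secreted growth factor that signals through the tyrosine kinase receptor IGF1R to the PI3K-AKT and MAPK pathways and promotes growth and survival of cells. In the lung, fibroblasts and macrophages are known sources of it, and it acts on mesenchymal and epithelial cells. The IGF2 receptor, also known as the cation-independent mannose 6-phosphate receptor, clears IGF2 and carries lysosomal enzymes. IGF binding proteins hold the ligand outside cells, where they prolong its life and limit or direct its access to the receptor, and proteases that cut them release it.

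Total counts were between 2227619 and 3650793 per library, and the 9 genes together drew between 3850 and 7995 counts. No pair of libraries agreed within sampling noise (chi-square of 5.04 to 16.4 per degree of freedom). Each was counted as 1 sample, although such differences do not show that libraries came from separate mice. Pairs within saline gave 7.98 to 16.4, pairs within C1q 5.04 to 7.40 and pairs across groups 5.675 to 14.43. Lung markers were present in all libraries: the summed level of 7 alveolar type 2 cell genes lay between 24169 and 45718 CPM, and that of 8 endothelial genes between 2753 and 3738 CPM. The 3 liver genes listed, Alb, Apoa1 and Serpina1a, summed to at most 2.71 CPM. Levels below are CPM, the usual counts per 1000000 library counts, on library sizes scaled by the trimmed mean of M-values (TMM), and fold changes compare C1q with saline. On this scale 3 counts correspond to 0.830 to 1.35 CPM.

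The libraries read transcripts from their 5′ ends, so the sequence around a RefSeq start site is shown for the 3 IGF genes with the smallest p-values. Each window runs from 250 bases before to 50 bases after the RefSeq start on GRCm38.p6, 5′ to 3′ on the gene's strand: chr10:87860861-87861160 on the plus strand for Igf1, chr7:67952007-67952306 on the plus strand for Igf1r and chr11:7213874-7214173 on the minus strand for Igfbp3. Capitals mark matches on either strand to the GC box GGGCGG, the TATA box TATAAA, the STAT-type motif TTCNNNGAA or the AP-1-like motif TGANTCA. N stands for any base, and no matches in these 3 windows overlap.
Igf1: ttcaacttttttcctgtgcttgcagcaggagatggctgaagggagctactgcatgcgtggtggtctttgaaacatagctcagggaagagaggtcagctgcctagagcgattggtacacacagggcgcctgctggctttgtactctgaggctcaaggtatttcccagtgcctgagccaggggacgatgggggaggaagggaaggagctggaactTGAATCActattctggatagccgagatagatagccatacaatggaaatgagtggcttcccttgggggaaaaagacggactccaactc
Igf1r: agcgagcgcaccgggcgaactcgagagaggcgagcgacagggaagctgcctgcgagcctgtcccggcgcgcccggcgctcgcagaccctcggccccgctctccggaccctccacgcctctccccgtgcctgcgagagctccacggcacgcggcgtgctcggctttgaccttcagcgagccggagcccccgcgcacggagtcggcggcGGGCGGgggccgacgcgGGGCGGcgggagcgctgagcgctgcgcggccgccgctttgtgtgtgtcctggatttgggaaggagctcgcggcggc
Igfbp3: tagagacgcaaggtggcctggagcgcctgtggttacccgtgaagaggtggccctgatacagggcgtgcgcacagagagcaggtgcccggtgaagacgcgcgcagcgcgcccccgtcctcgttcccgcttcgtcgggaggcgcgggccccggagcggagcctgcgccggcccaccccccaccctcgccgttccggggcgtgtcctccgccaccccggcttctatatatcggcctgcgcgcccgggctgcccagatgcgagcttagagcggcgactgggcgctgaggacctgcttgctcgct
The Igf1 window held 1 match, TGAATCA, to the loose motif TGANTCA. With any base at N, that motif was found in 7.81% of 32851 promoter windows of this length. The Igf1r window held 2 GC boxes, a motif found in 35.7% of them, and the Igfbp3 window held none of the 4 motifs. TATAAA occurs in 13.6% and TTCNNNGAA in 8.3% of all windows. The windows also differed in base composition. Igf1 had 6 CpG dinucleotides and a GC content of 52.3%, near the medians over all windows of 7 and 52.7%. Igf1r had 48 CpG at 76.0% GC and Igfbp3 had 37 CpG at 71.7% GC. Igf1 has 8 annotated transcript starts in GENCODE M21, Igf1r has 6 and Igfbp3 has 2. The 2 annotations place some starts differently. The Igf1 window lies inside the GENCODE gene, which begins at 87858265, and the Igf1r window ends before the GENCODE gene start at 67952827. The windows thus describe 1 RefSeq start each. The counts are given per gene and do not say which start was used.

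Igf1, which spans 87858265 to 87937042 on chromosome 10 (GRCm38, plus strand), had 1.94 times the saline level in C1q libraries, without passing the test over all genes. It stood at 27.0, 23.5 and 31.7 CPM in saline replicates 1 to 3 and at 60.8, 39.9 and 59.1 CPM in C1q replicates 1 to 3. All C1q libraries lay above all saline libraries, and C1q replicate 2 lay nearest to the saline range. The means were 27.4 ± 4.15 and 53.3 ± 11.7 CPM (SD, n = 3 each), from 58 to 85 counts per saline library and 113 to 220 per C1q library. The log2 fold change was 0.96 ± 0.20 (SE), a 1.94-fold difference with a 95% interval of 1.42 to 2.65. Its unadjusted p was 0.000725, rank 34 of the 13473 genes tested, and its adjusted p was 0.277 in edgeR's quasi-likelihood test. With any 1 library left out the log2 fold change stayed between 0.84 and 1.13, the unadjusted p in edgeR between 0.00022 and 0.00514, and the adjusted p between 0.128 and 0.854. With no filter on low counts, which put 26890 genes into the fit, Igf1 passed in edgeR (adjusted p = 0.000461). That fit called 373 genes (158 higher, 215 lower), where the main fit called 4, so calls were more frequent over all genes there. The antisense gene Igf1os overlaps Igf1, and it was not analysed here.

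**Figure D1:**
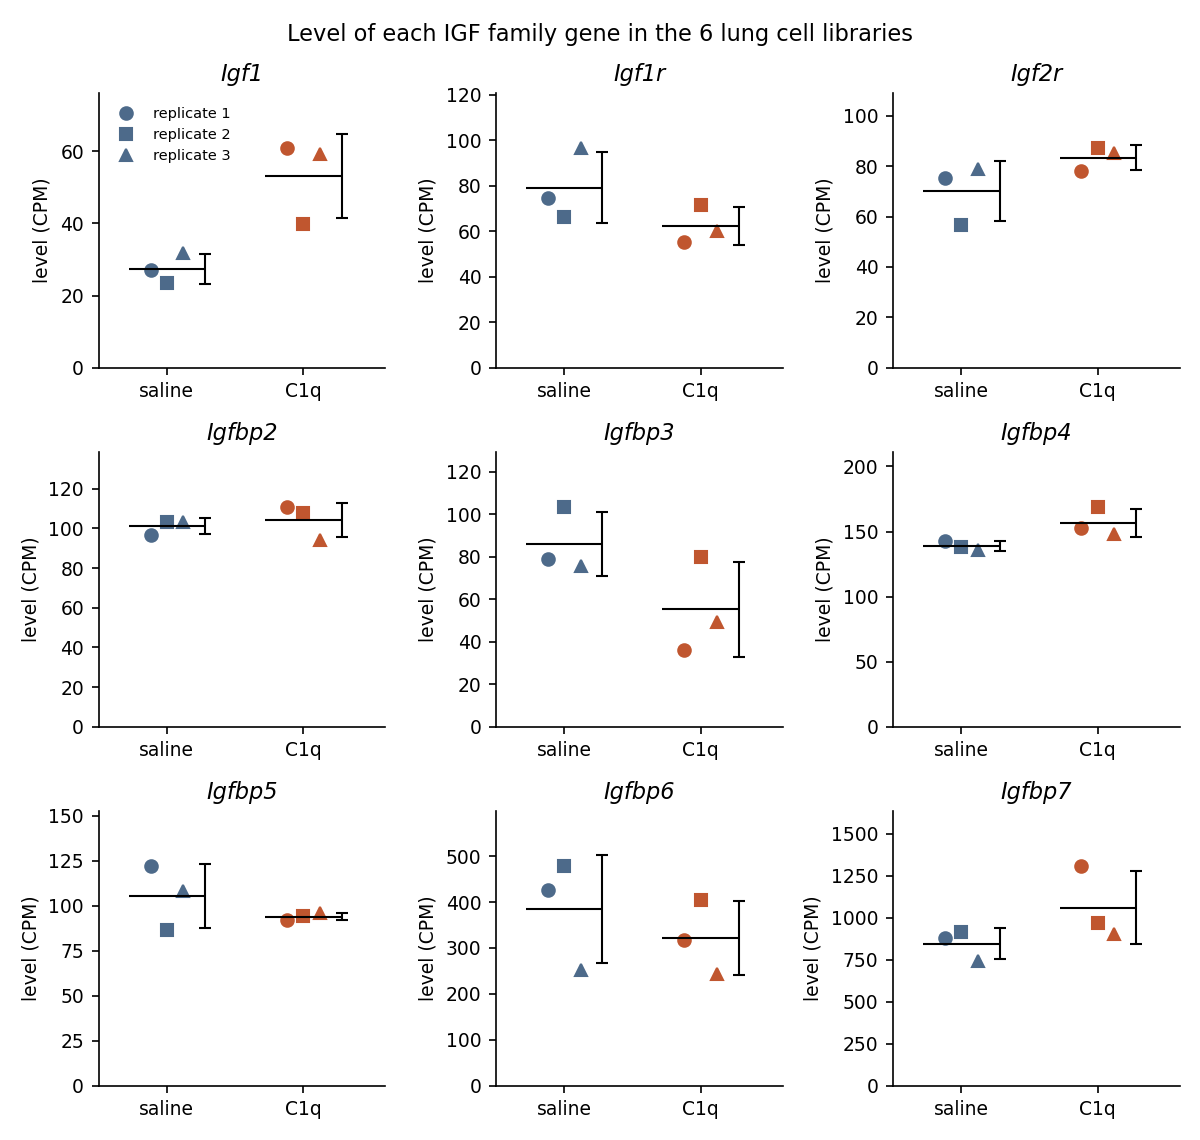
Level of each of the 9 IGF family genes in CPM (vertical axes, each starting at 0) in saline and C1q libraries, with 1 symbol per library, a line at the group mean and a bar of 1 SD. The 3 C1q libraries lie above the 3 saline libraries for Igf1 and Igfbp4, and the groups overlap for the other 7 genes.

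Markers of cells that can make Igf1 had differences in both directions. Of 10 fibroblast markers, 8 had a log2 fold change above 0 (median over the list 0.29), and 7 had all C1q libraries above all saline libraries, against 8.12% of all genes tested. Their summed level overlapped, at 4588 to 6665 CPM in saline and 5016 to 6251 CPM in C1q. The largest part of this sum was Inmt, 1 of the 2 markers below 0 (log2 fold change -0.21). Inmt alone stood at 2677 to 4713 CPM in saline and 2596 to 3709 CPM in C1q, so the sum mostly follows this gene. The 5 general macrophage markers summed to 178 to 217 CPM in saline and 214 to 231 CPM in C1q, with a median log2 fold change of 0.35 and 4 of 5 positive. The 8 interstitial macrophage markers summed to 310 to 508 CPM in saline and 391 to 528 CPM in C1q. The largest part of this sum was Lyve1, at 196 to 345 CPM in saline and 190 to 283 CPM in C1q. Of the 7 tested, 5 were positive and 2 negative, with a median of 0.68. This list holds the genes of C1q itself, C1qa, C1qb and C1qc, at 1.05, 0.88 and 0.87. Folr2 was at 0.68, Mrc1 at 0.34, Lyve1 at -0.22 and Cx3cr1 at -0.49. For 4 of the 7 tested, the C1q genes and Mrc1, all C1q libraries lay above all saline libraries (8.12% of all genes). For 1, Cx3cr1, all C1q libraries lay below (5.96% of all genes). The 8 alveolar macrophage markers summed to 1155 to 2806 CPM in saline and 2764 to 3455 CPM in C1q, with a median log2 fold change of 0.02. Most of this sum was 1 gene, Chil3, at 749 to 2030 CPM in saline and 2317 to 2783 CPM in C1q. Of the 8 markers, 5 were positive and 3 negative, namely Ear1 at -0.47, Fabp4 at -0.42 and Marco at -0.13. None of the markers in these 4 lists was at 0 in all libraries, and 0 of the 30 tested passed over all genes. A higher level with an unadjusted p under 0.05 in edgeR, met by 4.22% of all genes, was found for 4 fibroblast markers. These were Dpt at 0.48, Pi16 at 0.66, Clec3b at 0.53 and Lum at 0.67. It was also found for 1 general macrophage marker, Adgre1 at 0.77, the 3 C1q genes and 1 alveolar macrophage marker, Chil3 at 0.90. None of the markers in these 4 lists had a lower level with such a p. The part of these markers in the Igf1 difference was not tested. In these mixtures, more cells that express a gene and more RNA per cell cannot be told apart.

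For both receptor genes the groups overlapped. Igf1r, on chromosome 7 from 67952827 to 68233668, had levels of 74.6, 66.4 and 96.4 CPM in saline and 55.0, 71.6 and 60.0 CPM in C1q. C1q replicate 2 was above saline replicate 2, and saline replicate 3 was the highest library. The means were 79.1 ± 15.5 and 62.2 ± 8.50 CPM, a log2 fold change of -0.35 ± 0.18 (adjusted p = 0.623) and -0.18 without saline replicate 3. The 95% interval of the fold ran from 0.596 to 1.04, and larger rises lie outside it.

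Igf2r lies on chromosome 17 from 12682406 to 12769664. It stood at 75.2, 56.7 and 78.8 CPM in saline and at 78.0, 87.1 and 85.3 CPM in C1q. Saline replicate 2 was the lowest library, and the other saline libraries were close to C1q replicate 1. The log2 fold change was 0.25 ± 0.16 (adjusted p = 0.683), with a 95% interval of the fold from 0.924 to 1.52. Without saline replicate 2 the log2 fold change was 0.12, and without saline replicate 3 it was 0.33. Airn, a noncoding RNA that overlaps Igf2r on the other strand, had 8 to 27 counts per saline library and 10 to 15 per C1q library, against 140 to 282 for Igf2r over all libraries. How strand was handled is not stated in the labels, so reads of this pair may not be separated.

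Within each library, the count of Igf1 was set against that of its receptor, a ratio that does not depend on library scaling. There were 0.362, 0.354 and 0.330 Igf1 counts per Igf1r count in saline replicates 1 to 3. In C1q replicates 1 to 3 there were 1.11, 0.557 and 0.985. The saline libraries were close to each other and all C1q libraries were higher, with C1q replicate 2 between the saline libraries and the other two. The log2 ratio was -1.52 ± 0.07 in saline and -0.24 ± 0.53 in C1q (SD, n = 3 each), a difference of 1.28. An exact permutation test, two-sided, gave p = 0.1, the smallest that 3 against 3 allows. The ratio describes a shift between groups and does not compare the amounts of both transcripts, since counts were not scaled for transcript length.

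**Figure D2:**
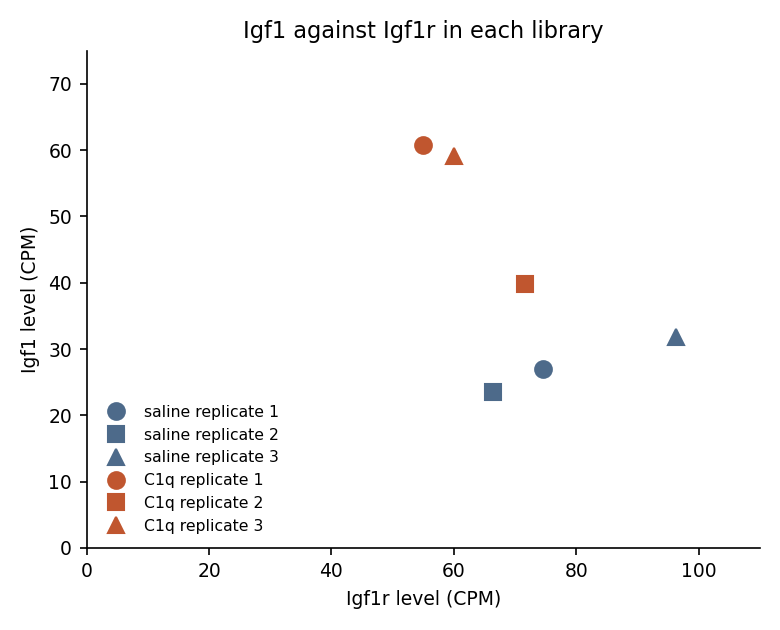
Igf1 level (vertical axis, CPM) against Igf1r level (horizontal axis, CPM), with 1 point per library. Saline libraries lie at 23.5 to 31.7 CPM of Igf1, and the C1q libraries lie higher on the Igf1 axis, C1q replicate 2 being the nearest to saline.

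The binding protein gene furthest from 0 was Igfbp3, on chromosome 11 from 7206086 to 7213923. It encodes the main carrier of IGFs in blood, which also acts on cells directly. Its levels were 79.1, 103 and 75.8 CPM in saline and 36.2, 80.1 and 49.2 CPM in C1q. C1q replicates 1 and 3 were below every saline library, while C1q replicate 2 lay within the saline range. The means were 86.0 ± 15.0 and 55.2 ± 22.5 CPM, a log2 fold change of -0.64 ± 0.26 with a 95% interval of the fold from 0.430 to 0.953. It did not pass over all genes (unadjusted p = 0.0315, adjusted p = 0.602). The value rested strongly on single libraries, at -1.02 without C1q replicate 2 and -0.40 without C1q replicate 1. Its unadjusted p, from the same edgeR test, was 0.0502 when saline replicate 1 was left out and 0.0783 when saline replicate 2 was. Leaving out C1q replicate 1 gave an unadjusted p of 0.135 and leaving out C1q replicate 3 gave 0.0935 in that test. Without saline replicate 3 the unadjusted p was 0.0156 and without C1q replicate 2 it was 0.0013. The adjusted p of Igfbp3 stayed at 0.325 or above in edgeR with any 1 library left out. The 8 endothelial markers were likewise all below 0 on the log2 fold change scale (median -0.26), 0 of them with an unadjusted p under 0.05, which 8.16% of all genes had. They summed to 3220 to 3738 CPM in saline and 2753 to 3362 CPM in C1q, with none at 0. The 8 smooth muscle and pericyte markers had a median of -0.22, with 5 negative and 3 positive. A lower level with an unadjusted p under 0.05, met by 3.94% of all genes, was found for 3 of them, Higd1b at -0.87, Cox4i2 at -0.60 and Pdgfrb at -0.41. The 3 positive markers lay close to 0, Acta2 at 0.01, Myh11 at 0.01 and Cspg4 at 0.07. The 8 markers summed to 675 to 730 CPM in saline and 573 to 672 CPM in C1q, with none at 0. Their summed level was lower in every C1q library, though the groups nearly met, at 672 and 675 CPM. The part of both lists in the values of Igfbp3 and Igf1r was not tested.

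Igfbp4 had a small, even difference. This gene, on chromosome 11 from 99041244 to 99054392, encodes a binding protein that restrains IGF action until the protease PAPP-A cuts it. It stood at 143, 138 and 136 CPM in saline and at 153, 169 and 148 CPM in C1q. All C1q libraries were above all saline libraries, yet the means, 139 ± 3.60 and 157 ± 10.7 CPM, differed by a log2 fold change of only 0.17 ± 0.14 (adjusted p = 0.735). The 95% interval of the fold was 0.912 to 1.39.

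Igfbp2 and Igfbp5, which are neighbours on chromosome 1, had fold changes close to 1. Igfbp2, whose protein is a known product of mature alveolar type 1 cells in the mouse, spans 72824503 to 72852474. It stood at 96.4, 103.2 and 103.5 CPM in saline and at 110.6, 107.6 and 94.3 CPM in C1q. The highest and lowest libraries were both from the C1q group, and all 6 lay within 1.17-fold of each other. The log2 fold change was 0.05 ± 0.14 (adjusted p = 0.943), and the 95% interval of the fold, 0.832 to 1.28, leaves out larger changes in either direction. The 6 alveolar type 1 cell markers summed to 2298 to 2905 CPM in saline and 2437 to 2663 CPM in C1q, with a median log2 fold change of -0.01. Of these markers 3 were positive and 3 negative, from -0.75 for Hopx to 0.30 for Aqp5. The largest part of the sum was Ager, at -0.12.

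Igfbp5, a binding protein that also attaches to the extracellular matrix, lies between 72857932 and 72874884. Its levels were 121.8, 86.6 and 108.3 CPM in saline and 91.8, 94.2 and 95.7 CPM in C1q. The C1q libraries were within a narrow band inside the saline range. The log2 fold change was -0.17 ± 0.16 (adjusted p = 0.766), with -0.05 when saline replicate 1 was left out and -0.29 when saline replicate 2 was, and the 95% interval of the fold was 0.696 to 1.13.

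Igfbp6 varied more between libraries than between groups. It encodes a binding protein with a preference for IGF2 and lies on chromosome 15 from 102144362 to 102149511. Its levels were 425, 478 and 252 CPM in saline and 318, 404 and 243 CPM in C1q. Replicate 3 was the lowest of each group, the number being only the order of deposition, and the coefficient of variation was 30.7% in saline and 25.1% in C1q. The log2 fold change of -0.26 ± 0.25 (adjusted p = 0.779) was -0.49 without saline replicate 3 and -0.07 without saline replicate 2.

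Igfbp7, on chromosome 5 from 77349240 to 77408041, encodes a relative with low affinity for IGFs that is abundant in vascular endothelium. It stood at 882, 914 and 743 CPM in saline and at 1307, 969 and 903 CPM in C1q. C1q replicate 1 was the highest library by a wide margin, and C1q replicate 3 lay within the saline range. The means were 846 ± 90.7 and 1060 ± 217 CPM, a log2 fold change of 0.32 ± 0.18 (adjusted p = 0.639). This value was 0.15 without C1q replicate 1 and 0.43 without C1q replicate 3. Its mean was higher in C1q, whereas the means of all 8 endothelial markers were lower, and the difference between these directions was not tested.

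**Figure D3:**
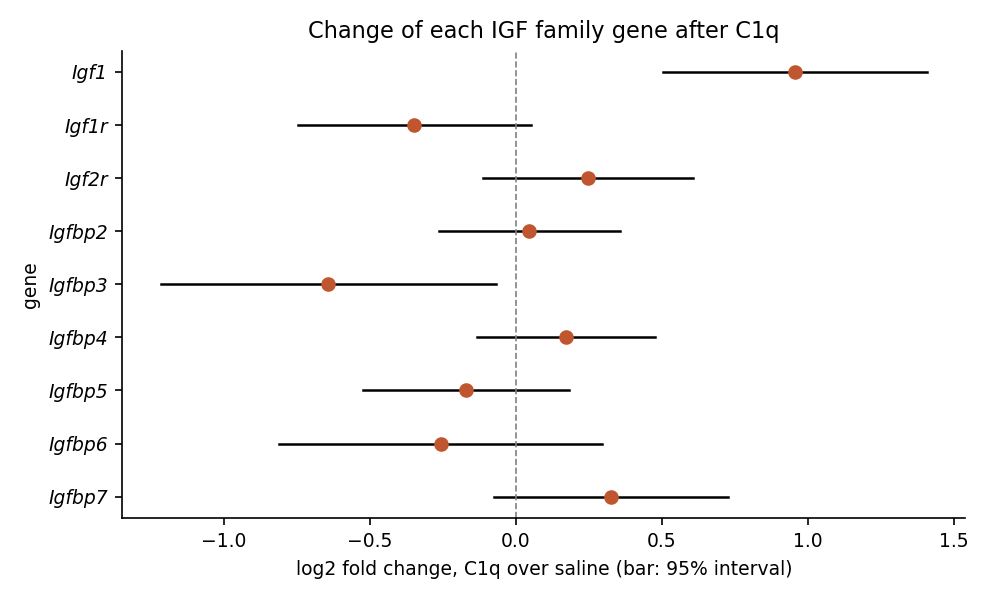
Log2 fold change of C1q over saline (horizontal axis) for the 9 IGF family genes, with points for edgeR's estimate and bars for the 95% interval, not adjusted for the number of genes. The intervals of Igf1 (above 0) and Igfbp3 (below 0) do not reach 0, and those of the other 7 genes do.

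Across the family, 0 of 9 genes passed the edgeR test, as 4 of 13473 (0.0297%) did over all genes, and DESeq2 and limma-voom called 0 of the 9 too. An unadjusted p under 0.05 was met by 2 of 9 genes, where 8.16% of all genes met it. These were Igf1 with a higher level (4.22% of all genes in that direction) and Igfbp3 with a lower one (3.94%). The groups did not overlap for 2 of 9 genes, Igf1 and Igfbp4, where 14.1% of all genes had groups that did not overlap. Log2 fold changes were positive for 5 of 9 genes, where 48.2% of all genes had one, and their median was 0.05 against -0.01 over all genes. The family had no common direction.

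**Figure D4:**
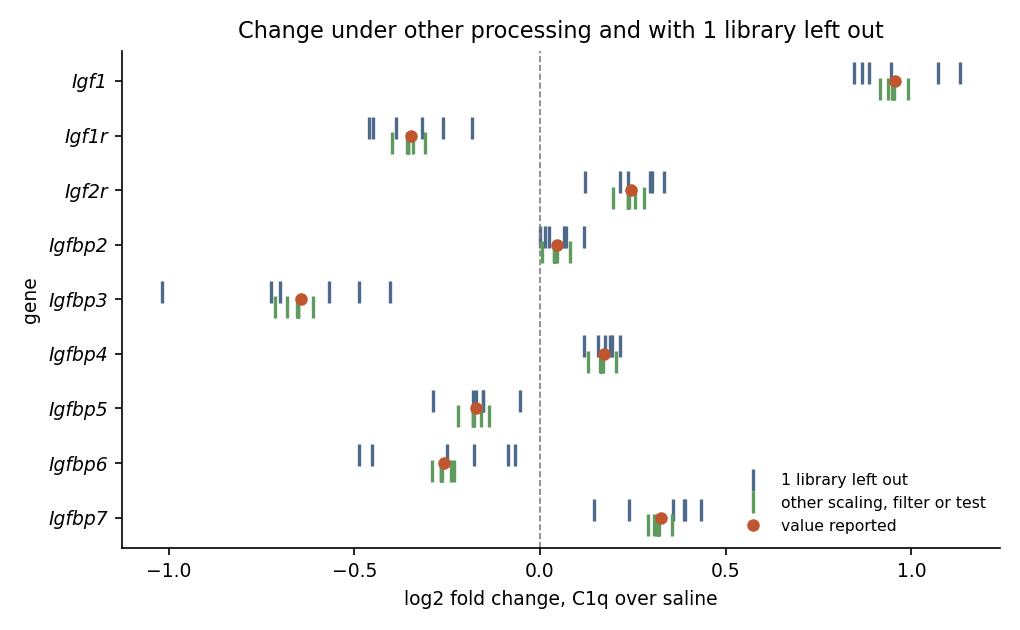
Log2 fold change of C1q over saline (horizontal axis) for each IGF family gene as reported (circle), with 1 library left out (upper ticks) and under another scaling, filter or test (lower ticks). Each gene stays on its own side of 0 in all 13 alternatives, with Igf1 between 0.84 and 1.13 and Igfbp3 between -1.02 and -0.40. Igfbp2 comes as close to 0 as 0.001.

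Genes around the IGF system were read from a list of 60, of which 57 were in the table and 49 were tested. None of the 49 passed in edgeR, and 0 had an unadjusted p under 0.05 (8.16% of all genes), while DESeq2 and limma-voom also called 0. Log2 fold changes were positive for 19 and negative for 30, with a median of -0.04. All C1q libraries lay above all saline libraries for 4 of the 49 (8.12% of all genes) and below for 3 (5.96%). The largest log2 fold change among them was 0.62, that of Igf2bp2, and the lowest -0.42, that of Tsc1.

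Igf2, the other IGF ligand, stood at 5.60 to 12.2 CPM in saline and had a log2 fold change of -0.06 ± 0.37. The insulin receptor gene Insr was at -0.06 ± 0.15. Among the proteases of binding proteins and the inhibitors of those proteases, Htra1, a secreted serine protease, went from 40.2 ± 4.37 to 51.7 ± 9.75 CPM with no overlap of the groups (log2 fold change 0.37 ± 0.18, adjusted p = 0.612). Pappa, which encodes the protease of Igfbp4's product, had a mean of 4.71 CPM in saline libraries and 3.59 CPM after C1q, with a log2 fold change of -0.42 ± 0.44. In the growth hormone axis, the main regulator of Igf1 in liver, the receptor gene Ghr was at -0.08 ± 0.16 and the signal transducer gene Stat5a at 0.43 ± 0.27, and 3 of 5 genes were positive.

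Of 8 receptor adaptors tested, 2 had positive log2 fold changes: Grb10, an inhibitory adaptor of IGF1R and the insulin receptor, at 0.39 ± 0.21, and Sos1, an activator of Ras, at 0.27 ± 0.16. In the PI3K and AKT arm 13 of 17 genes were negative, with a median of -0.04, Tsc1, an inhibitor of mTOR complex 1, being at -0.42 ± 0.21 and Pdpk1, the kinase that activates AKT, at 0.29 ± 0.16. All 5 genes of the MAPK arm were positive and small, from 0.06 to 0.21, Map2k2 being at 0.21 ± 0.15. The FOXO group, transcription factors that AKT holds out of the nucleus and some of their targets, had 6 of 8 genes negative. Foxo3 was at -0.18 ± 0.15 and the stress gene Sesn3 at 0.61 ± 0.32. Of the genes for IGF2 mRNA-binding proteins, Igf2bp2 was tested and went from 7.03 to 10.9 CPM, a log2 fold change of 0.62 ± 0.29 (adjusted p = 0.606).

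**Figure D5:**
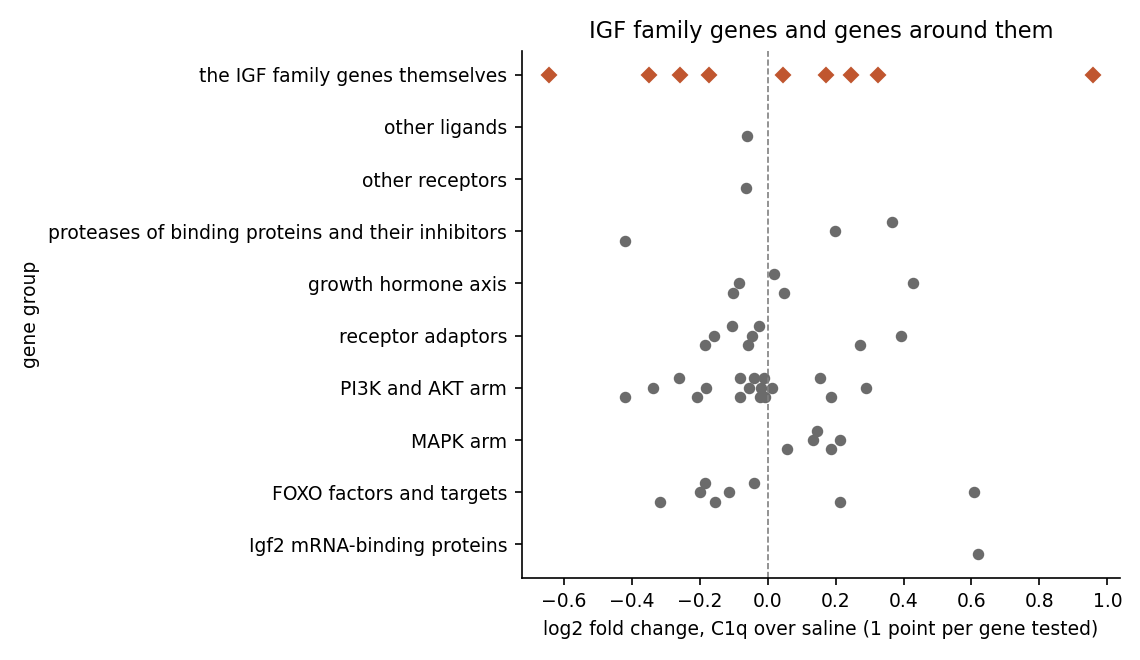
Log2 fold change of C1q over saline (horizontal axis), with 1 point per gene tested, for the 9 IGF family genes (diamonds, top) and 49 genes around them by group (circles, vertical spread within a group only separates points). Igf1 at 0.96 lies to the right of every other gene shown, the next being Igf2bp2 at 0.62.

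The genes whose profile lay closest to that of Igf1 were taken from 10341 others with a mean of at least 10 CPM, by the root-mean-square difference of mean-centred log2 CPM over the 6 libraries. In order they were Col1a2, a chain of type I collagen, at a difference of 0.0902, Snx20, a sorting nexin of blood cells, at 0.123, the fibronectin gene Fn1 at 0.128, the gelatinase gene Mmp2 at 0.129 and the chemokine gene Cxcl1 at 0.133, where the median over all candidates was 0.555. Col1a2 stood at 244, 215 and 263 CPM in saline and at 470, 363 and 475 CPM in C1q. C1q replicate 2 was the lowest of its group for both genes, a likeness for which Col1a2 was picked. The closest to Igfbp3 were Acbd4 at 0.124, Zfp366 at 0.134 and 9930014A18Rik at 0.137. These are likenesses over 6 shared libraries, and 0 of the 8 genes passed over all genes.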

How the data were processed

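The authors deposited a table of unnormalized counts, 1 whole number for each gene symbol in each library. The submitters' processing notes name the build GRCm38 and the tools Bowtie2 2.4.2 and cutadapt 2.1.0. How reads were assigned to genes, by which annotation, with or without strand and with or without molecular identifiers is not given in the sources used. After filterByExpr and TMM scaling, all genes kept were fitted together in edgeR 4.0.16 under R 4.3.3 (quasi-likelihood, two-sided, treatment as sole term), with Benjamini-Hochberg adjustment over all genes tested and a threshold of 0.05. Standard errors and 95% intervals come from the fold change and the F statistic. The fit was tested on simulated data. The common biological coefficient of variation was 19.5%. Alternatives were other scalings and filters, DESeq2 1.42.0, limma-voom (limma 3.58.1) and leaving out each library. Totals of 2227619 to 3650793 counts limit precision for low genes.

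The members and gene lists were chosen with earlier results of these data known. The rule named all 9 members, the 2 genes of each surrounding group with the smallest p, genes of the list not tested, and the genes closest in profile to Igf1 and to the other member with the largest change. Of the genes so named, 1 is not reported here. Markers were given as counts and sums, and those named were chosen after their values were seen. Positions are from GENCODE M21 and promoter sequences from RefSeq (GRCm38.p6), where all 9 symbols matched.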

Additional observations from a re-analysis of the deposited data

How the results depend on the processing

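Direction held for each of the 9 IGF family genes in all 13 alternatives, which reuse the same libraries. Some values came close to 0, namely 0.001 for Igfbp2, -0.05 for Igfbp5 and -0.07 for Igfbp6, so an unchanged sign says little there. The number of the 9 genes past the threshold was 0 in all but 1 of the 13 alternatives. That was the fit with no filter on low counts, which called 1, Igf1. The number of the 9 with an unadjusted p under 0.05 in edgeR, 2 as reported, was 1 to 3 with 1 library left out, and 1 each time that saline replicate 1, C1q replicate 1 or C1q replicate 3 was the one left out. The genes around them gave 0 calls throughout, and 0 to 3 of them had an unadjusted p under 0.05. The number of all genes with such a p in edgeR moved as well, from 1099 of 13473 as reported. With 1 library left out it was lowest without C1q replicate 1 (737 of 13751) and highest without saline replicate 2 (1652 of 14061). With no filter it was 2261 of 26890. Over all genes, the 4 calls became 32 with DESeq2 (31 higher, 1 lower) and 373 with no filter (158 higher, 215 lower), and 0 to 10 with 1 library left out: 10 when saline replicate 3 was left out, 2 for C1q replicate 2, 1 for C1q replicate 1, and 0 for saline replicate 1, where 952 genes had an unadjusted p under 0.05 in edgeR. The cause was not tested. Over all genes the median log2 fold change was -0.01 with TMM and -0.05 with library size only. The log2 ratio of Igf1 to Igf1r differed by 1.09 to 1.58 with 1 library left out and by 1.27 with a pseudocount of 1. No paired analysis was possible because replicate numbers follow the order of deposition and pair nothing.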

Other observations

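Some IGF genes lay below the filter on low counts. Stc2, an inhibitor of the protease PAPP-A, had 9, 10 and 10 counts in saline and 9, 7 and 4 in C1q, or 3.56 ± 0.597 and 2.25 ± 0.389 CPM (SD, n = 3 each). Pappa2, a protease of binding proteins, had 9, 1 and 5 counts in saline and 7, 5 and 3 in C1q. Igf2bp3 had 9, 6 and 19 counts in saline and 4, 7 and 8 in C1q, saline replicate 3 being the highest. Igf2bp1 had 2 to 8 counts per library. The adaptor gene Irs3 had 1 to 5 counts per library. Igfals, the acid-labile subunit that liver adds to circulating IGF complexes, had 1 count over the saline libraries and 5 over the C1q libraries. Igfbpl1 and Insrr had 1 count each over all 6 libraries. Igfbp1, Ins1 and Ins2 were not analysed here.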
